A study of Mus musculus with 2 samples.

Results

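Natural killer (NK) cells were sought among single cells sorted from mouse melanoma tumours. A barcode (the tag shared by all RNA molecules of 1 droplet) was called NK when at least 2 of the 5 receptor genes Ncr1, Klrb1c, Klra4, Klra7 and Klra8 had a UMI. It also needed a UMI of the adaptor gene Tyrobp or Fcer1g and none of Lyz2, a gene of myeloid cells. A UMI (unique molecular identifier) stands for 1 captured RNA molecule. The rule took 56 NK cells from the 10713 barcodes with at least 500 genes, at most 10% mitochondrial UMIs and 1 hashtag holding at least 80% of hashtag UMIs, out of 16969 deposited barcodes.

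The tumours came from C57BL/6J mice, of which 4 were given Lactobacillus reuteri, a gut bacterium (LR, mice 1 to 4), and 4 PBS (mice 6 to 9). Cells were enriched with CD90.2, the protein of Thy1, and each mouse was stained with its own hashtag antibody before live CD8+ cells were sorted. Cells of a treatment were combined after the sort and all 8 mice shared 1 droplet lane, so handling after the sort cannot be told apart from treatment. The labels name the cells T cells, and give no gate that was meant to keep NK cells. The sources used here do not state the tumour line, the ages of the mice or any other agent.

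NK cells are innate lymphocytes that kill infected or transformed cells without a rearranged antigen receptor. Activating receptors such as NKp46 (Ncr1), NK1.1 (Klrb1c) and some Ly49 proteins (the Klra family) signal through adaptors, among them DAP12 (Tyrobp) and the Fc receptor gamma chain (Fcer1g). Inhibitory Ly49 receptors and CD94/NKG2 recognise MHC class I on healthy cells. Killing uses perforin (Prf1) and granzymes, and maturation in the mouse depends on the transcription factors Eomes and T-bet (Tbx21). Resting NK cells carry CD3 chain messages at low levels or not at all, and CD90 is found on part of them.

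The promoters of a rule gene, Ncr1, and of Gzma, the granzyme that was highest in the NK cells, are shown because RUNX factors are known to act at NK cell genes. Each run holds the 250 bases before the start of the gene in RefSeq on GRCm38.p6, 5′ to 3′ on the strand of the gene, with the RUNX core TGTGGT or its reverse complement ACCACA in capitals. The Ncr1 run lies at chr7:4337465-4337714 on the plus strand and the Gzma run at chr13:113100982-113101231 on the minus strand.
Ncr1: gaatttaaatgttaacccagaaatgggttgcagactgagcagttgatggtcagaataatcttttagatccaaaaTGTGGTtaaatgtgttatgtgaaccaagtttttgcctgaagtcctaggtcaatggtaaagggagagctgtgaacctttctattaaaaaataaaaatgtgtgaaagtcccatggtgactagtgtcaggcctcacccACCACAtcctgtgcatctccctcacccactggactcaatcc
Gzma: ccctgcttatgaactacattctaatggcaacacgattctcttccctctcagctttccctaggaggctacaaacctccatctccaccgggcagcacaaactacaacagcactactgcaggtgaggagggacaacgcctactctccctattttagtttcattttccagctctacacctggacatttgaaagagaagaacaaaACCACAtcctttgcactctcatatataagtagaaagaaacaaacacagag
The Ncr1 run held 2 matches and the Gzma run 1. A match on either strand was found in 14.05% of all 32851 promoters in the table over the same 250 bases. It was found in 7 of the 46 promoters (15.2%) of genes called higher in NK cells below, so this short motif was about as common there as in all promoters. A match describes letters and is no evidence of binding.

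The 8 mice held few NK cells, and 2 mice held most of them. LR mice 1 to 4 held 4, 3, 1 and 11 NK cells, and PBS mice 6 to 9 held 1, 5, 25 and 6. As a share of passing barcodes these were 0.310%, 0.293%, 0.231% and 1.31% in LR mice, and 0.168%, 0.180%, 1.39% and 0.307% in PBS mice. LR mouse 4 and PBS mouse 8 stood above the other 6 mice, which lay between 0.168% and 0.310%. PBS mouse 8 alone held 44.6% of all NK cells. LR mice averaged 0.536% ± 0.518 and PBS mice 0.511% ± 0.587 (SD over 4 mice per treatment; two-sided exact permutation p = 0.8, where 0.0286 is the smallest p this design allows). The difference of 0.0258 percentage points was smaller than the spread between mice of either treatment. Its sign changed under several settings, and without LR mouse 4 it was −0.232. The CD8 sort can set this share, so it is no measure of NK cells in the tumour.

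**Figure D1:**
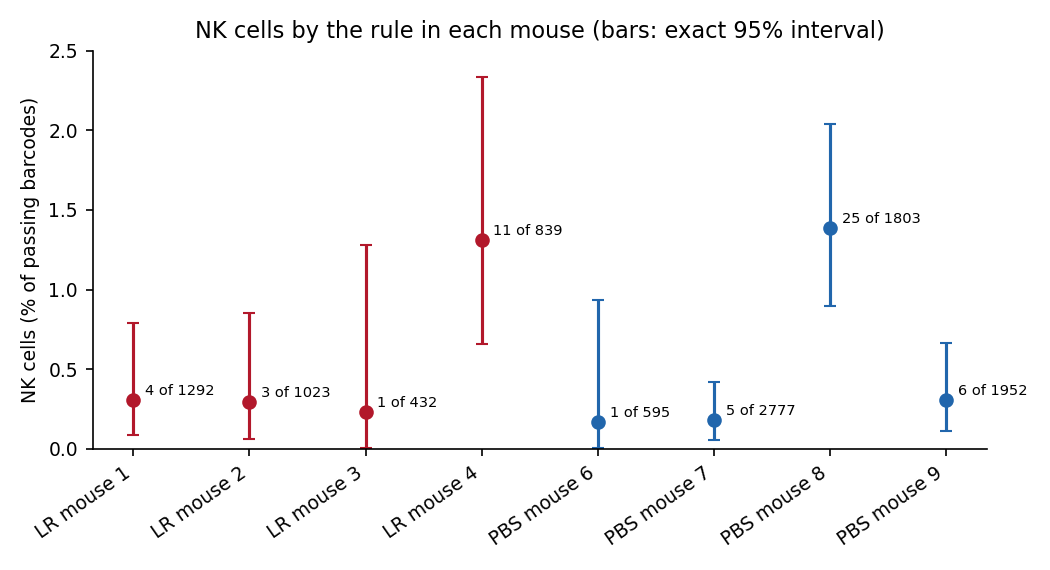
NK cells as a percentage of passing barcodes (y axis) in each mouse (x axis, LR red, PBS blue). Points are the share, bars its exact 95% interval for counting error, and numbers the NK cells of the barcodes; LR mouse 4 (1.31%) and PBS mouse 8 (1.39%) stand above the other 6.

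The 56 NK cells were shallow, with a median of 3165.5 UMIs (852 to 24404) and 229512 UMIs in all. The 1872 Pdcd1-positive CD8 cells used for comparison had a UMI of Cd8a or Cd8b1, a UMI of Pdcd1 (which encodes PD-1) and none of Cd4, with a median of 5616.5 UMIs. No barcode met both rules. The scrublet doublet caller marked 3 of the 56 NK cells and 140 of the 1872 CD8 cells, and both were kept.

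The NK cells were chosen by the UMIs of these 7 genes and of Lyz2, so their values are given as a description. Klrb1c had a UMI in 96.4% of NK cells, Klra7 in 60.7%, Ncr1 in 57.1%, and Klra4 and Klra8 in 23.2% each. Of the adaptors, Fcer1g was found in 98.2% and Tyrobp in 80.4%, and 44 cells held both. In Pdcd1-positive CD8 cells these 7 genes lay between 0% (Ncr1 and Klra4) and 3.6% (Fcer1g). The Ly49 genes were spread over the cells: 7 cells had a UMI of none of the 8 Ly49 genes that were seen, 16 of 1, 17 of 2, 13 of 3 and 3 of 4. Exactly 2 receptor genes were found in 31 of the NK cells, 3 in 17, 4 in 7 and all 5 in 1.

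Not every T cell gene followed the number of receptor genes in 1 direction. NK cells with exactly 2 receptor genes had a Cd3e UMI in 61.3%, those with exactly 3 in 23.5% and those with 4 or 5 in 37.5%. Trac was at 12.9%, 11.8% and 12.5% in these 3 groups and Cd8b1 at 22.6%, 11.8% and 25.0%. Cd8a, by contrast, was at 22.6%, 0% and 0%. The last group held only 8 cells. Gzma was found in 51.6%, 82.4% and 100% of them. The 45 barcodes just outside, with an adaptor and exactly 1 receptor gene, had Cd3e in 80% and Gzma in 11.1%. A further 39 barcodes met every NK condition but the hashtag share and were left out.

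The label was only partly borne out by the T cell genes. Cd3e, the CD3 epsilon chain of the T cell receptor complex, had a UMI in 26 of the 56 NK cells (46.4%, exact 95% interval 33.0 to 60.3). Trac, the constant part of the receptor's alpha chain, was found in 7 (12.5%, 5.18 to 24.1). Cd8a, a chain of the CD8 coreceptor the cells were sorted on, was also found in 7 (12.5%, 5.18 to 24.1). The CD8 cells gave 97.3%, 65.3% and 89.9% for the same genes, the last partly by their rule.

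The 30 barcodes with myeloid genes, which should lack all 3, served as background and had a median of 7094 UMIs. They gave 53.3% for Cd3e, 16.7% for Trac and 20% for Cd8a. The NK shares lay below each of these, so no expression is read from them, but the myeloid barcodes were deeper. After each barcode was thinned to 1500 UMIs, which left out 3 NK cells, 77 CD8 cells and 2 myeloid barcodes, Cd3e was found in 30.2% of NK cells, 84.0% of CD8 cells and 32.1% of myeloid barcodes. Trac was then at 5.66%, 28.9% and 3.57%, and Cd8a at 5.66%, 64.1% and 7.14%. Cd3d was at 32.1%, 79.7% and 25.0%. At equal depth Trac and Cd3d thus lay above the myeloid share, and Cd3e and Cd8a below it. With 53 NK cells and 28 myeloid barcodes, no difference is read from these shares in either direction. Where the T cell message of the NK cells and of the myeloid barcodes comes from was not tested.

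Cd3e and Cd8b1, the other CD8 chain, are set side by side as a description. The NK cells held 96 UMIs of Cd3e to 22 of Cd8b1, and the myeloid barcodes 57 to 16. The CD8 cells held 17162 to 15124, but their rule asked for a UMI of Cd8a or Cd8b1. No difference in ratio from the CD8 cells is therefore read. The cell with the most Cd3e, 15 UMIs, was also the deepest of the NK cells at 24404 UMIs.

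**Figure D2:**
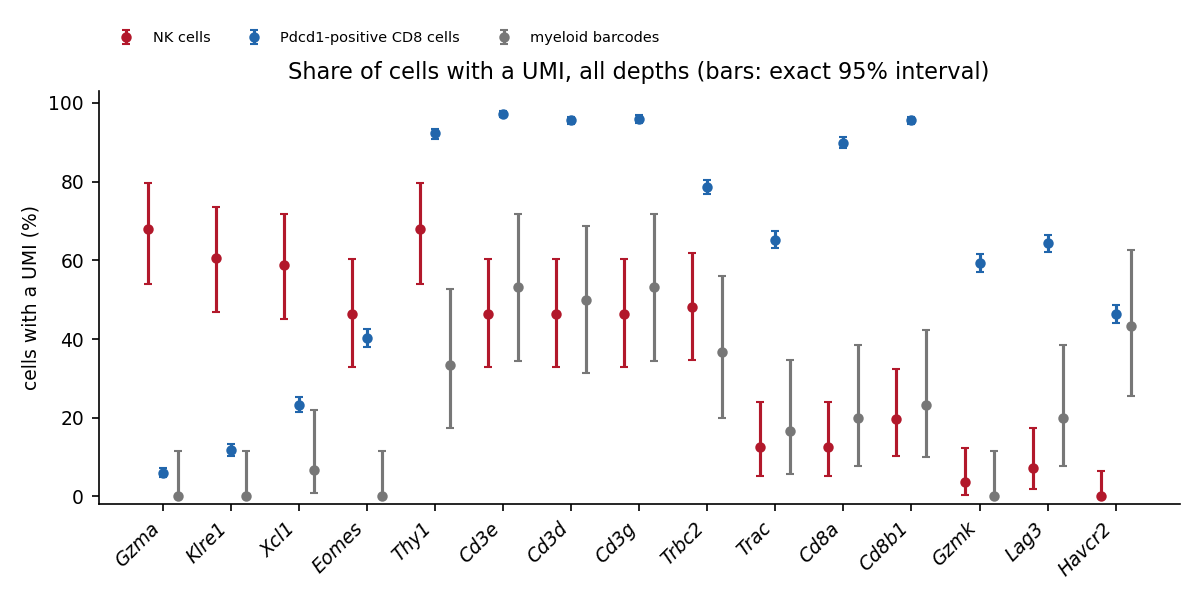
Percentage of cells with a UMI (y axis) of 15 genes (x axis) in 56 NK cells (red), 1872 Pdcd1-positive CD8 cells (blue) and 30 myeloid barcodes (grey), with exact 95% intervals for counting error. The CD3 chains, Trac, Cd8a and Cd8b1 lie at or below the myeloid share in NK cells at full depth, while Gzma and Klre1 are at 0% in myeloid barcodes.

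Thy1, which encodes the protein used for enrichment, had a UMI in 38 NK cells (67.9%) against 92.3% of CD8 cells and 33.3% of myeloid barcodes. Markers of other cell types were scarce in NK cells. Of 10 myeloid markers 9 were at 0, with only Itgax seen. All neutrophil, mast cell, melanoma and red blood cell markers were at 0, among them S100a8, Mcpt8, Mlana and Hbb-bs. The gamma delta T cell gene Trdc had a UMI in 3 NK cells (5.36%), and Zbtb16, a factor of invariant NKT cells, in 2 (3.57%). The 6 T cell markers together stood at 1664 CPM in NK cells (988 to 3270 over the 4 mice with at least 5 NK cells) against 4540 CPM in CD8 cells (4114 to 5101). CPM is counts scaled to 1000000 UMIs of the summed cells.

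NK cells differed among themselves in how many of Cd3d, Cd3e, Cd3g and Trac they carried. None of the 4 was seen in 18 cells, 1 in 12, 2 in 9, 3 in 13 and all 4 in 4. The 18 cells with none held more of several NK genes: summed Gzma was 8070 CPM, Gzmb 2587, Tyrobp 2443, Klre1 760 and Ncr1 597. In the 26 cells with 2 to 4 the same genes were at 1198, 305, 973, 203 and 181 CPM. The Ly49 genes of the rule were mixed. Klra4 was higher in the 18 cells, at 326 CPM (7 cells with a UMI) against 29.0 CPM in the 26 (3 cells). Klra7 ran the other way, at 362 CPM (10 cells) against 436 CPM (20 cells). Klra8 was at 90.5 CPM (4 cells) against 160 CPM (5 cells), and 1 of the 26 cells, from PBS mouse 7, held 13 of its UMIs. Cd8a had no UMI in the 18 cells (an allowance of up to 3 counts) and was found in 6 of the 26.

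Genes of resting T cells were higher in the 26 cells. Lef1 stood at 72.4 CPM in the cells with none and 196 CPM in those with 2 to 4. Ccr7, a receptor for homing to lymph nodes, had a UMI in 0 and 7 cells. Tcf7, which both NK and T cells use, was at 290 and 392 CPM. The cells with 2 to 4 T cell messages were deeper, with a median of 4432.5 UMIs against 2491.5, and held all 3 marked doublets. Their median hashtag share was 89.8% against 92.7%. The part of depth and of doublets in this split was not tested, and it is a description with no test, since the cells were split by their own values.

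The split also ran along mice. PBS mouse 8 gave 12 of the 18 cells without T cell message and LR mouse 4 gave 2. LR mouse 4 gave 5 of the 17 cells with 3 or 4 T cell messages, PBS mouse 9 gave 4 and PBS mouse 8 gave 3.

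**Figure D3:**
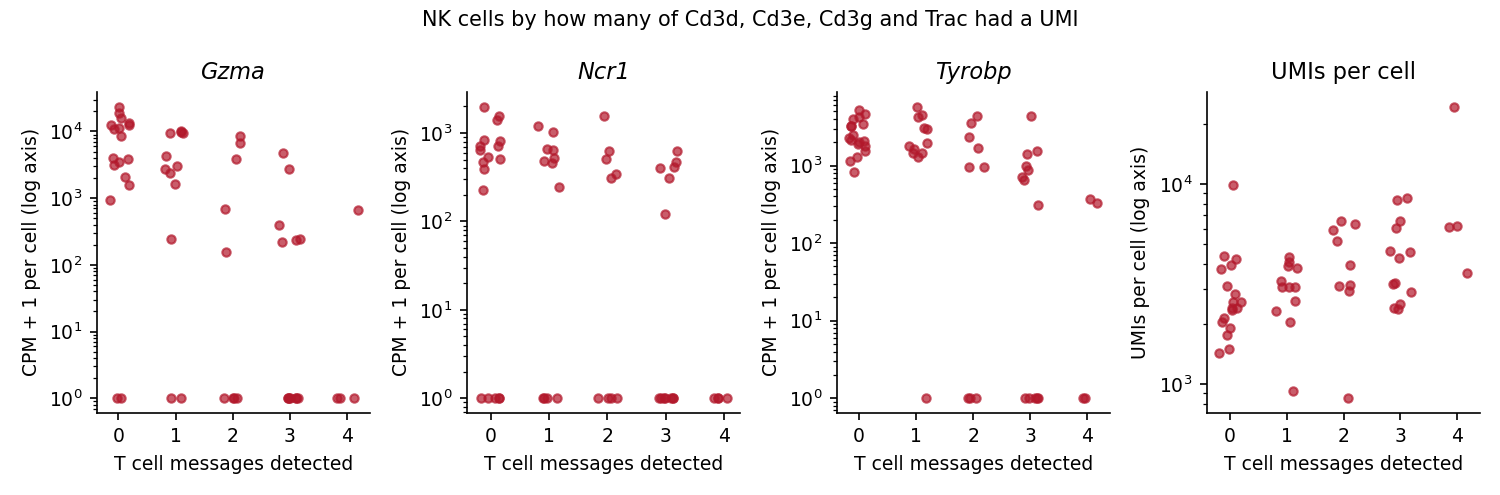
Each point is 1 of the 56 NK cells, placed by how many of Cd3d, Cd3e, Cd3g and Trac had a UMI (x axis, jittered), against its level of Gzma, Ncr1 and Tyrobp (CPM + 1) and its UMIs, all on log axes. Points at 1 have no UMI of the gene; Gzma was high in most cells without T cell message and at 0 in most with 3 or 4.

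The NK cells were next compared with the Pdcd1-positive CD8 cells of the same mice, to see which genes set them apart beyond the rule. UMIs were summed per mouse and class in the 4 mice with at least 5 NK cells: LR mouse 4 and PBS mice 7, 8 and 9. Of 5850 genes outside both rules, 56 (0.957%) were called higher in NK cells and 79 (1.35%) lower (edgeR quasi-likelihood test with mouse as a block, adjusted p of 0.05 or less over all genes). The median gene was at −0.15 on the log2 scale. The call depended on PBS mouse 8: without it 6 genes were called higher (Klra1, Klra9, Klrb1b, Klrb1f, Klre1, Klri2) and 3 lower (Gzmk, Lag3, Rgs16). Without LR mouse 4 the counts were 15 and 11, and without PBS mouse 9 they were 33 and 26. Of the 135 called genes, 131 to 134 could be tested with 1 mouse left out, and each of these kept its direction. Of the 56 genes called higher, 29 passed the filter on low counts only through the NK cells (Gzma, Ahr and Il12rb2 among them). Of the 79 called lower, 35 passed only through the CD8 cells (Gzmk, Lag3, Havcr2, Themis and Cd6 among them). Such a gene had to differ to be tested, so counts and medians over tested list members below are descriptions. The share of all tested genes without overlap is not given, so a lack of overlap below is a description too. A single barcode of 24404 UMIs held 48.8% of the NK UMIs of PBS mouse 7. The CD8 cells were chosen for Pdcd1, which can raise genes that go with Pdcd1 in T cells. The part of this choice in the differences was not tested.

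Some NK receptors outside the rule were higher. Of 12 activating receptors and adaptors tested, 4 were called higher and 8 were not called. Of 9 tested Ly49 and CD94/NKG2 receptors, 4 were higher and 5 not called. Over all genes 0.957% were called higher. No member of either list was called lower, but Cd226 (−0.13), Slamf7 (−0.24), Cd247 (−0.57) and Klrg1 (−0.61) had negative log2 ratios. Fcgr3, Klrb1b, Klrb1f, Klra1, Klra9 and Klri2 passed the filter only through the NK cells, so their calls add little, while Klre1 and Klrk1 passed in each class.

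Klre1, a CD94-like partner chain of NK receptors, was at 258, 340, 412 and 314 CPM in NK cells of LR mouse 4 and PBS mice 7, 8 and 9. In their CD8 cells it was at 34.2, 68.5, 48.5 and 36.1 CPM. The groups did not overlap, and the log2 ratio was 2.71 ± 0.27 (SE, n = 4; edgeR adjusted p = 4.8e-05). It held when PBS mouse 8 was left out, at 2.52 with an edgeR adjusted p of 0.030.

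Klrk1, which encodes the activating receptor NKG2D shared by NK cells and killer T cells, was at 516, 300, 727 and 358 CPM in NK cells. The CD8 cells held 172, 112, 117 and 139 CPM. All 4 mice were higher in NK cells, by 1.73 ± 0.27 (log2, SE; edgeR adjusted p = 0.0029). Without PBS mouse 8 the edgeR adjusted p was 0.192.

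Klrb1f and Klrb1b, relatives of NK1.1, averaged 208 ± 86.4 and 259 ± 171 CPM in NK cells (SD, n = 4). They averaged 1.79 ± 1.82 and 2.87 ± 2.98 CPM in CD8 cells. Fcgr3, the low-affinity Fc receptor used in antibody-dependent killing, was at 92.5 ± 40.2 CPM against 1 UMI in all CD8 cells of these mice. Klri2, a further lectin-like receptor, was at 124 ± 41.3 against 2.11 ± 0.27 CPM. The Ly49 gene Klra1 had 30 UMIs in NK cells and none in CD8 cells of these 4 mice. Against a floor of 3 counts over these CD8 cells it was at least 357-fold higher. Over all 8 mice 0.214% of CD8 cells had a Klra1 UMI. Klra9 had 27 UMIs against 2.

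The Ly49 genes are close copies, so reads could be split among them. The longest reading frames of Klra1 and Klra4 were 88.3% identical, those of Klra8 and Klra9 91.9% and those of Klra3 and Klra9 95.9%. The calls for Klra1 and Klra9 are therefore uncertain as to the gene, and they share sequence with rule genes. Among receptors that activated CD8 cells also use, Klrk1 was called and these were not: Klrd1 (CD94) was at 709 ± 272 against 392 ± 67.6 CPM, Klrc1 (NKG2A) at 301 ± 143 against 190 ± 84.0, and Tigit at 294 ± 91.5 against 528 ± 157.

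Most of these receptor genes lie together. The natural killer gene complex, taken as the stretch from Klrb1a to Klra2 at chr6:128609227-131247362 (GRCm38, GENCODE M21), holds 51 genes of the matrix. It holds 4 rule genes and the 7 called genes Klrb1b, Klrb1f, Klre1, Klrk1, Klri2, Klra9 and Klra1. Klrd1, Klrc1 and the early activation gene Cd69 in the same stretch were not called. Only 14 genes there outside the rule could be tested, several of them only because NK cells held them, so no share is read from this.

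Gzma, which encodes granzyme A, had the largest ratio of the 14 cytotoxic genes tested. NK cells of LR mouse 4 and PBS mice 7, 8 and 9 held 1504, 4099, 5559 and 896 CPM, and their CD8 cells 6.30, 2.17, 69.9 and 99.6 CPM. Every NK value lay above every CD8 value, with a log2 ratio of 6.30 ± 0.71 (SE, n = 4; edgeR adjusted p = 0.00016). Gzma passed the filter on low counts only through the NK cells, so its call adds little. Without PBS mouse 8 the ratio was 6.41 with an edgeR adjusted p of 0.114. It had a UMI in 67.9% of NK cells, 5.98% of CD8 cells and 0 of 30 myeloid barcodes. Among the 18 NK cells with no UMI of Cd3d, Cd3e, Cd3g and Trac, the log2 ratios were 6.22 for Gzma and 3.40 for Klre1. This setting was added after the data were seen. PBS mouse 8 held 12 of these cells, LR mouse 4 held 2, and LR mice 1 and 2 and PBS mice 7 and 9 held 1 each. Sums of 1 cell carry little about the spread between mice, so no p-value is given. A single cell gave 135 of the 205 Gzma UMIs of PBS mouse 7, and 1 cell gave 46 of the 70 of LR mouse 4.

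The other killing genes set the classes less far apart. Of 14 cytotoxic genes tested, Gzma and Ctsw were higher, Gzmk lower and 11 not called, with a median of 0.45. Over all genes 0.957% were called higher and 1.35% lower. Ctsw, a lysosomal protease of killer cells, was at 775 ± 211 against 403 ± 89.9 CPM (0.84 ± 0.20, log2 and SE; edgeR adjusted p = 0.041) and lost its call without any 1 of the 4 mice (edgeR adjusted p 0.0651 to 0.468). Gzmk, the granzyme of effector-memory and exhausted CD8 cells, had 2 UMIs in NK cells and stood at 315 ± 139 CPM in CD8 cells. Its log2 ratio was −4.90 ± 0.52 (SE; edgeR adjusted p = 1.3e-05), but it passed the filter only through the CD8 cells.

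Granzyme B and perforin were not called. Gzmb was at 580, 1500, 1126 and 269 CPM in NK cells and 903, 429, 586 and 623 CPM in CD8 cells, overlapping, with 0.39 ± 0.37 (log2, SE; edgeR adjusted p = 0.651). Prf1 was at 215, 220, 275 and 89.6 against 469, 170, 279 and 144 CPM, −0.42 ± 0.30 (edgeR adjusted p = 0.529). Nkg7, a cytotoxic granule protein, was at 1786 ± 477 against 2580 ± 567 CPM and also not called.

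**Figure D4:**
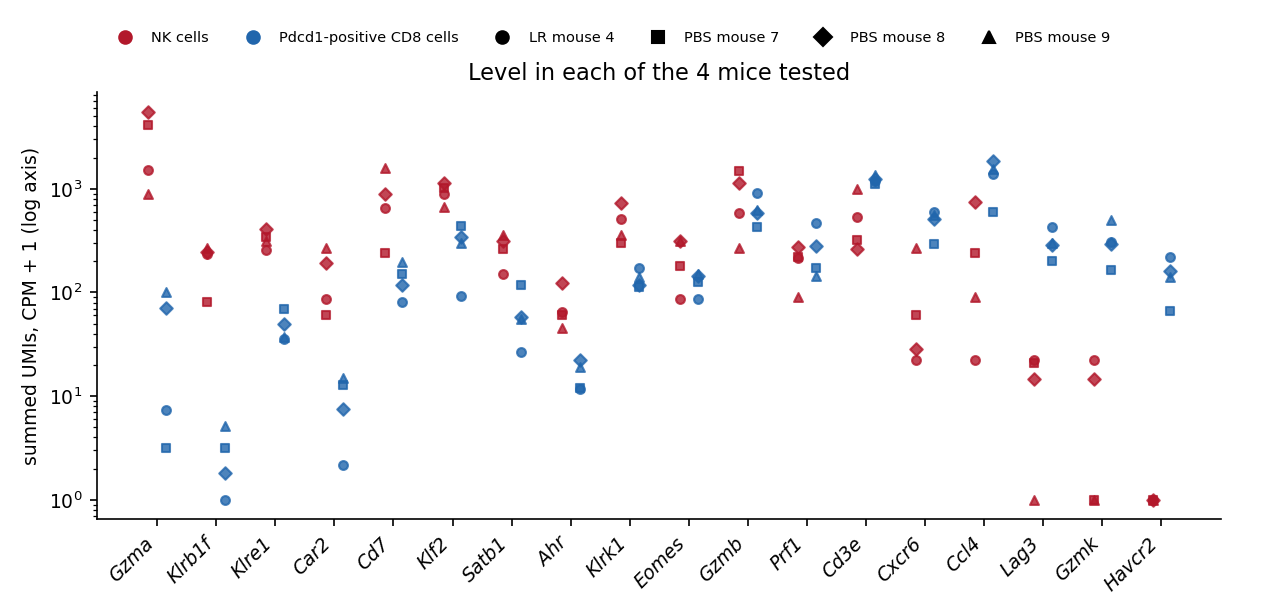
Level (CPM + 1, log axis) of 18 genes in NK cells (red) and Pdcd1-positive CD8 cells (blue) of the 4 mice tested, 1 marker shape per mouse; points at 1 have no UMI. Gzma, Klrb1f, Klre1 and Car2 lie higher in NK cells in all 4 mice, Eomes lies higher in all 4 but by little in LR mouse 4, Gzmb and Prf1 are mixed, and Lag3, Gzmk and Havcr2 lie lower.

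Some cytokines and chemokines were lower. Of 11 tested, 4 (Ccl1, Ccl3, Ccl4 and Csf1) were called lower in NK cells and none higher, with a median of −0.44 and against 1.35% of all genes called lower. Ccl3, a chemokine that draws myeloid and T cells, was at 21.5, 99.97, 151 and 44.8 CPM in NK cells and 630, 314, 777 and 545 CPM in CD8 cells, −2.80 ± 0.35 (edgeR adjusted p = 0.00047). Ccl4, its close relative, was at 21.5, 240, 741 and 89.6 against 1377, 601, 1867 and 1544 CPM, −2.34 ± 0.41 (edgeR adjusted p = 0.0063). Ccl4 overlapped between classes, since NK cells of PBS mouse 8 were above CD8 cells of PBS mouse 7. Ccl1 and the growth factor gene Csf1 had no UMI in NK cells, which against a floor of 3 counts is at least 5.97-fold and 3.93-fold lower. Both genes passed the filter only through the CD8 cells.

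Ifng, which encodes interferon gamma, was at 107, 180, 316 and 0 CPM in NK cells and 260, 120, 277 and 270 CPM in CD8 cells. The groups overlapped and it was not called (edgeR adjusted p = 0.609). Xcl1, which draws cross-presenting dendritic cells, had a UMI in 58.9% of NK cells and 23.3% of CD8 cells, and in 50.9% and 12.6% after thinning. Its summed level of 730 ± 145 against 424 ± 139 CPM was not called (edgeR adjusted p = 0.091). Ccl5, abundant in both, was at 5443 ± 3007 against 4700 ± 2072 CPM.

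Some T cell receptor and T lineage genes were lower. Of 18 tested, 8 were called lower, against 1.35% of all genes, 10 not called and none higher, with a median of −1.15. Cd2, an adhesion receptor of both lineages (0.12), and Tespa1 (0.69) had positive ratios. Cd3e was at 537, 320, 261 and 986 CPM in NK cells and 1195, 1122, 1255 and 1356 CPM in CD8 cells, with no overlap, −1.56 ± 0.24 (log2, SE; edgeR adjusted p = 0.0021). Cd3d and Cd3g, the other CD3 chains tested, were lower by similar amounts, −1.43 ± 0.23 and −1.65 ± 0.25.

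The T lineage genes Themis and Cd6 were almost absent. Themis, which T cell development requires, had 1 UMI in the NK cells of these mice, and the surface receptor gene Cd6 had 3. Themis stood at 118 ± 2.76 CPM in CD8 cells and Cd6 at 176 ± 49.4. Both passed the filter on low counts only through the CD8 cells. Trac was at 0, 99.97, 13.7 and 179 CPM in NK cells against 204, 147, 202 and 231 CPM, and was not called (−1.95 ± 0.53; edgeR adjusted p = 0.076). Lck, a kinase of both lineages, was at 545 ± 85.3 against 541 ± 62.7 CPM.

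The checkpoint receptors Havcr2 and Lag3 were lower in NK cells, beside CD8 cells that were chosen for Pdcd1. They were the 2 called of 6 tested, both testable only through the CD8 cells, with a median of −2.40 (−2.34 with Havcr2 at its bound). Among all genes 1.35% were called lower. Havcr2, which encodes TIM-3, had no UMI in any of the 56 NK cells, an allowance of up to 5.36% of cells, and against 3 counts it was at least 10.4-fold lower. Lag3, which binds MHC class II, was at 21.5, 19.99, 13.7 and 0 CPM in NK cells and 431, 200, 284 and 301 CPM in CD8 cells. Cd160, by contrast, was at 178 ± 159.7 against 115 ± 31.3 CPM and not called. The log2 ratio of Lag3 was −4.37 ± 0.46 (SE; edgeR adjusted p = 1.3e-05), and it held without PBS mouse 8 (edgeR adjusted p = 0.0067). Pdcd1 itself had a UMI in 4 NK cells.

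Among NK transcription factors, Klf2 and Ahr were higher and 13 of the 15 tested were not called, with a median of 0.50. Among all genes 0.957% were called higher. Ahr encodes the aryl hydrocarbon receptor, which senses tryptophan catabolites, the subject of the series title. It was at 64.5, 60.0, 124 and 44.8 CPM in NK cells and 10.6, 10.9, 21.4 and 18.1 CPM in CD8 cells. The groups did not overlap, and the ratio was 2.25 ± 0.45 (log2, SE; edgeR adjusted p = 0.014). Ahr passed the filter on low counts only through the NK cells, so its call adds little. The ratio rests on 16 UMIs in 13 of the 56 NK cells, and without PBS mouse 8 the edgeR adjusted p was 0.362. An Ahr UMI was found in 23.2% of NK cells, 8.0% of CD8 cells and 33.3% of the myeloid barcodes, which are cells also known to use Ahr.

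Klf2, which keeps lymphocytes in circulation, was at 925 ± 196 against 293 ± 146 CPM (1.72 ± 0.30; edgeR adjusted p = 0.0051). Eomes was at 85.9, 180, 316 and 314 CPM in NK cells and 85.8, 125, 144 and 149 CPM in CD8 cells. It had a UMI in 46.4% of NK cells and 40.3% of CD8 cells, and in 32.1% and 13.0% after thinning, but its summed level was not called (0.66 ± 0.29; edgeR adjusted p = 0.276). Tbx21, which encodes T-bet, was at 139 ± 101.2 against 67.8 ± 9.39 CPM and not called. Of T cell factors, Satb1, a chromatin organiser, was higher (271 ± 90.001 against 63.3 ± 38.0 CPM), and the exhaustion factor Tox and Nr4a2 were lower (−2.18 ± 0.47 and −1.69 ± 0.37).

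Some genes of conventional NK cell maturation were higher and a residence gene was lower. Of 5 tested maturation genes 3 were called higher, with a median of 1.58 (over all genes 0.957% were called higher and 1.35% lower). Among them, Cd7 was at 836 ± 557 against 136 ± 49.1 CPM and the transporter partner Emb at 570 ± 118 against 196 ± 84.3. The residence receptor Cxcr6 was the 1 gene called among 5 tested of the ILC1 and residence list, at 94.4 ± 117 against 489 ± 135 CPM (−2.995 ± 0.42; edgeR adjusted p = 0.0011).

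Cell by cell, the NK stage markers were sparse. Cd27, held by less mature NK cells, had a UMI without Itgam in 21 NK cells, Itgam (CD11b), held by mature ones, without Cd27 in 8, both in 1 and neither in 26. Eomes had a UMI without Itga1 (CD49a of ILC1) in 25, Itga1 without Eomes in 3, both in 1 and neither in 27. S1pr5, which lets mature NK cells leave tissues, had a UMI in 5 cells and Klrg1, a late marker, in 3.

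Cytokine and chemokine receptors gave 3 calls. Il12rb2, a chain of the IL-12 receptor, was at 87.6 ± 41.7 against 15.6 ± 7.52 CPM, and Ifngr1, of the interferon gamma receptor, at 1083 ± 320 against 435 ± 120. These were the 2 called of 11 tested cytokine receptors (median 0.45), and Il12rb2 passed the filter only through the NK cells. Beside the counts here, 0.957% of all genes were called higher and 1.35% lower. Ccr2, which follows CCL2 into inflamed tissue, was the 1 called of 10 homing genes (median 0.97), at 247 ± 97.5 against 58.0 ± 37.3 CPM. Of 8 cycling genes Pclaf alone was called, lower at −4.34 ± 0.66, and the list median was −0.88. Pclaf passed the filter only through the CD8 cells. Fos and Jun, which also rise when tissue is dissociated, were 2 of 9 tested in that list and higher in NK cells (1.59 ± 0.35 and 1.47 ± 0.32). Their part in the other differences was not tested.

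Outside the lists, the highest called genes were Tnfsf12 (5.98 ± 0.92), Styk1 (5.47 ± 0.81), Hhex (4.18 ± 0.77), Car2 (4.12 ± 0.52), Olfm1 (3.85 ± 0.53) and Pde2a (3.70 ± 0.53), all log2 ratios with SE. Each of these 6 genes passed the filter on low counts only through the NK cells, so their calls add little. Styk1 encodes a receptor-like pseudokinase of NK cells, Hhex a homeobox factor and Car2 a carbonic anhydrase. Car2 was at 85.9, 60.0, 192 and 269 CPM in NK cells and 1.18, 11.95, 6.58 and 13.9 CPM in CD8 cells. The 6 lowest had no UMI in NK cells of these mice: the receptor segments Trbv13-1, Trgv2 and Trbv3, and Nrn1, Adam8 and Serpine2. These passed the filter only through the CD8 cells, so their calls add little too. The bounds ran from at least 4.197-fold (Trbv3) to at least 8.87-fold lower (Trbv13-1). The bound for Trbv13-1 holds only for the mice tested. NK cells of LR mouse 1 held 11 UMIs of this T cell receptor segment (677 CPM), and 1.79% of all NK cells had a UMI. With all 8 mice its log2 ratio was −1.52.

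Treatment was compared within NK cells last. With at least 5 NK cells required, LR mouse 4 stood alone against PBS mice 7, 8 and 9, and the test assumes that the lone LR mouse varies like the PBS mice. Of 1086 genes tested, Gzmc, a granzyme of strongly activated killer cells, was the 1 gene called (0.0921%), higher in LR. LR mouse 4 held 32 UMIs of Gzmc in its 11 NK cells and the PBS mice 1, 3 and 0, or 688 CPM against 19.99, 41.2 and 0. The log2 ratio was 4.59 ± 0.72 (SE; edgeR adjusted p = 3.7e-05, 1 mouse against 3), which describes the 11 cells of 1 mouse and carries no spread between LR mice. Over all 8 mice the other 3 LR mice had no Gzmc UMI, and it had a UMI in 5 of the 56 NK cells with at most 15 in 1 cell. With DESeq2 its adjusted p was 0.999, with every gene of at least 1 UMI it was 0.071, and with all 8 mice, where 246 genes could be tested, Gzmc was too low to be tested.

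Apart from Gzmc no named gene was called between treatments with the main settings. Gzma was at 492, 4808, 0 and 1504 CPM in NK cells of LR mice 1 to 4, and 9414, 4099, 5559 and 896 CPM in those of PBS mice 6 to 9. The groups overlapped (−1.24 ± 0.42, LR mouse 4 against PBS mice 7 to 9; edgeR adjusted p = 0.471). Gzma was called lower in LR mouse 4 with library totals in place of TMM (−1.30; edgeR adjusted p = 0.020) and without PBS mouse 9 (−1.64; edgeR adjusted p = 0.0010). Ccl4 had 1 UMI in LR mouse 4 and 12, 54 and 2 in PBS mice 7 to 9 (−4.12 ± 1.12; edgeR adjusted p = 0.197). It was called lower in LR mouse 4 without marked doublets (−4.06), with library totals (−4.17), with the default edgeR form (−4.01) and without PBS mouse 7 (−4.41), at edgeR adjusted p of 0.0031 to 0.0468. Ahr was at 64.5 CPM in LR mouse 4 and at 0 in the other 3 LR mice. PBS mice 6 to 9 held 0, 60.0, 124 and 44.8 CPM, and Ahr was too low to be tested. A single UMI was worth 61.5, 85.9, 152 and 21.5 CPM in LR mice 1 to 4, so a 0 in the first 3 was not detectable as a difference at this depth.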

How the data were processed

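The deposited matrix holds UMI counts of 32285 genes and 9 hashtags, written by Cell Ranger 4.0.0 per the file headers. GRCm38 is the build listed in the submitters' processing notes, and the annotation release is not given in the sources used here. Treatment and mouse were read from the hashtag names, which pair no mice across treatments. The matrix holds 64359313 gene UMIs, and 8 of the 9 hashtags had passing barcodes. Doublets were marked with Scrublet in scanpy 1.11.5 (expected rate 0.1), which marked 13.6% of barcodes within the gene and mitochondrial limits, and were left in.

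Counts summed over the cells of each mouse and class were tested with edgeR 4.0.16 in R 4.3.3 (TMM factors, expression filter, Benjamini-Hochberg over all genes), and DESeq2 1.42.0 was an alternative. The small-count-adjusted form of the fit replaced edgeR's default form as the main test after the p-values of the default had been seen, since its prior degrees of freedom were infinite. The scripts were tested on simulated data, in which few of the changed genes were recovered at this number of cells, so a gene that was not called may still differ. Both classes were chosen on expression of the same cells, so p-values between them describe other genes and do not test whether the classes exist. Shares were compared by two-sided exact permutation over mice. Intervals are exact Clopper-Pearson 95% intervals and cover counting error only. A floor is 3 counts over the class.

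The NK rule, gene lists and comparisons were chosen with earlier results of these data known. Named genes were the rule genes, Gzma, Cd3e, Trac, Cd8a, Cd8b1, Eomes, Gzmb, Prf1, Ifng and Ahr. To these were added up to 4 called genes per list and direction that moved the same way in all 4 mice, detected in at least 5% of the cells of either class, and the 6 highest and 6 lowest outside the lists. Other genes were named after their values were seen. The list of gamma delta and invariant NKT genes had no member that could be tested. Positions are from GENCODE M21 and promoters from RefSeq. A called gene that the rule names is not reported here.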

Additional observations from a re-analysis of the deposited data

Results flagged for a closer look

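The share of NK cells was 1.31% in LR mouse 4, whose gap to the next LR mouse was 0.928 of the range of the 4 LR mice. It was 1.39% in PBS mouse 8, with a gap of 0.886 of the range of the PBS mice. Each lies further from the rest of its group than chance allows in about 1 of 20 groups. Among 6 genes looked at in each treatment, Ahr in NK cells stood apart in LR mouse 4 at 64.5 CPM, the other 3 LR mice being at 0 with 1 to 4 NK cells each. Eomes stood apart in PBS mouse 7, at 180 CPM in its 5 NK cells against 304 to 316 CPM in the other PBS mice. A single cell of 24404 UMIs held 48.8% of the NK UMIs of PBS mouse 7 but 1 of its 9 Eomes UMIs. The part of this cell in the low value was not tested. The 304 CPM of PBS mouse 6 was 1 UMI in its 1 NK cell.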

How the results depend on the processing

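The counts of genes called between NK and Pdcd1-positive CD8 cells (56 higher, 79 lower) changed with the mice, the depth and the form of the fit; where no mouse or cell was removed the cause was not tested. They were 21 and 28 after thinning to 1500 UMIs, where 1727 genes were tested. They were 89 and 402 with all 8 mice. With the 2 mice of at least 10 cells they were 0 and 0, with 1055 genes at an unadjusted p of 0.05 or less. With every gene of at least 1 UMI 271 were lower, and the default edgeR form, added after the data were seen, gave 102 and 185. DESeq2 gave 116 calls, of which 110 were among the 135. Leaving out 1 mouse gave 6 to 44 higher and 3 to 75 lower. The mouse block rests on both classes coming from the same animals; with no replicate block the counts were 74 and 117.

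The rest of the alternatives over all 8 mice were added after the data were seen. They gave 19 higher and 109 lower with at least 3 receptor genes, 19 higher without T cell message, 47 and 217 at a hashtag share of 90%, and 38 to 106 higher and 267 to 637 lower with 1 mouse left out. Gzmb changed sign, at −0.29 in all 8 mice and −0.16 to 0.74 with 1 of the 4 mice left out, and within all 8 mice at 0.26 with at least 3 receptor genes, 0.73 without T cell message and 0.0075 at the 90% hashtag share. Prf1 turned to 0.23 and 0.039 under the first 2 of these, and Gzmc to −1.64 under the last, all log2 ratios that were not called. Gzmb was called lower in all mice but PBS mouse 7 (−0.86; edgeR adjusted p = 0.015).

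Between treatments (1 gene higher, 0 lower), 4 were lower without marked doublets and 4 with library totals. None was higher with DESeq2 (11 genes at an unadjusted p of 0.05 or less), with every gene of at least 1 UMI (274) or with all 8 mice (8), where Gzmc could not be tested. The default edgeR form called 1 lower, and leaving out 1 PBS mouse gave 1 to 3 higher and 1 to 6 lower. The treatment difference in NK share, never called, was −0.166 percentage points with at least 3 receptor genes, −0.0848 without T cell message, −0.0408 at a 90% hashtag share, −0.0113 without marked doublets, and −0.232 to 0.318 with 1 mouse left out. Among barcodes without Cd3e and Lyz2 it was −0.861. Cd3e was found in 28.0% of NK cells with at least 3 receptor genes and in 46.3% after thinning to 2500 UMIs. Cd8a was at 0% with at least 3 receptor genes and without T cell message. With the narrower NK rules 1 mouse kept 5 cells, and without LR mouse 4, or with 10 cells required, a treatment was left empty or alone, so those fits were not run.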

Other observations

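Il2rb, Id2, Ltb and Mki67 were picked with their values in view, and none was called between NK and Pdcd1-positive CD8 cells. Il2rb, the IL-2 and IL-15 receptor chain on which NK cells depend, was at 886 ± 216 CPM in NK cells and 538 ± 78.2 CPM in CD8 cells (SD, n = 4). All 4 mice were higher in NK cells without overlap, but its edgeR adjusted p was 0.134. Id2, a factor of both killer lineages, was at 949 ± 182 against 837 ± 258 CPM, and Ltb, a lymphotoxin chain, at 813 ± 342 against 608 ± 115 CPM, and both overlapped. Mki67, a gene of cycling cells, had a UMI in 5 NK cells, 1 of which held 33 of the 38 UMIs.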
